A study of Cavia porcellus with 35 samples.

Results

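The genes described are the opioid peptide precursors and opioid receptors listed for the guinea pig medial prefrontal cortex (mPFC). They are prodynorphin (Pdyn), proenkephalin (PENK) and prepronociceptin (PNOC), with the mu (OPRM1), delta (OPRD1), kappa (OPRK1) and nociceptin (OPRL1) receptors. The 7 genes were taken by symbol, ignoring case, and all 7 were listed in each of the 4 count tables, out of 12097 symbols listed in at least 1 table. They were not chosen by their values, but Pdyn is a gene that the study had already singled out in these same animals, so its direction here is not independent evidence.

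RNA had been sequenced from 35 juvenile animals at postnatal day 40, with 1 library per animal. Control and sGC animals numbered 4 and 4 in each of the F1, F2 and F3 female tables and 5 and 6 in the F1 male table. The sGC line began with pregnant guinea pigs given repeated courses of betamethasone, a synthetic glucocorticoid, late in gestation, and the control line with pregnant animals given saline. F1 animals were exposed in utero, whereas F2 and F3 females descended through F1 and F2 males mated with females from outside the experiment. No strain is given in the labels. Tissue was a punch of cingulate area 1 and infralimbic cortex from the right hemisphere, so each library mixes all the cells of the punch, and in such a mixture a lower level cannot separate fewer expressing cells from less RNA per cell.

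Opioid peptides are cut from large precursor proteins: dynorphins from prodynorphin, enkephalins from proenkephalin and nociceptin from prepronociceptin. Dynorphins act mainly on kappa receptors, enkephalins on delta and mu receptors, and nociceptin on its own receptor. All these receptors couple to inhibitory G proteins, which lower cyclic AMP, open inwardly rectifying potassium channels and close presynaptic calcium channels. In the forebrain both PENK and Pdyn are abundant in the spiny projection neurons of the striatum, while the cortex holds scattered peptide-expressing neurons.

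Levels are given as counts-per-million (CPM) after TMM scaling of library size. Libraries held about 12820000 to 19551100 counted reads in females and 25698000 to 31763600 in males. Because the tables had been made separately, tests compared sGC with control animals within a table, using edgeR's quasi-likelihood test with Benjamini-Hochberg adjustment (FDR) over all genes tested. Transcript lengths were not used, so levels are compared between animals and never between genes. One field of the labels names the hypothalamic paraventricular nucleus instead of the prefrontal cortex. TRH and OTP, a peptide and a transcription factor of that nucleus, were listed in none of the tables, AVP had 6 to 38 reads per animal and OXT 12 to 119, while the summed cortical excitatory neuron markers ranged from 1743 to 6429 CPM.

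In F1 females, 3 of the 7 genes passed an FDR of 0.05: Pdyn and PENK fell and OPRL1 rose in sGC animals, beside 16.5% of all genes tested in that table (7.33% lower and 9.21% higher). The same 3 genes had an unadjusted p under 0.05, beside 34.2% of all genes. In F2 females, 0 of the 6 genes tested passed, with 2 at an unadjusted p under 0.05, where 0.278% of all genes passed the FDR (0.126% lower and 0.153% higher) and 16.1% the unadjusted p. The likelihood ratio test called 2 genes there (Pdyn and OPRD1) and DESeq2 called 1 (OPRD1), beside 534 and 473 of all 11132 genes tested. In F3 females 1 of 7 passed, OPRM1, which fell, beside 1.34% of all genes (0.271% lower and 1.07% higher), and 4 had an unadjusted p under 0.05, beside 17.3%. In F1 males 0 of 7 passed the FDR and 2 had an unadjusted p under 0.05, beside 9.22% of all genes past the FDR (3.48% lower and 5.74% higher) and 25.2% past the unadjusted p. The likelihood ratio test called 1 in F1 males (Pdyn) and DESeq2 0, beside 1410 and 1590 of all 11524 genes tested. The groups did not overlap for Pdyn, PENK and OPRL1 in F1 females, OPRD1 in F2 females, OPRM1 in F3 females and for no gene in F1 males, where 23.2%, 8.09%, 10.3% and 6.26% of all genes had groups that did not overlap. The median log2 fold change of the genes was -0.14, -0.12, -0.12 and -0.03 in the same order of tables, beside -0.03, 0.01, -0.01 and 0.00 over all genes.

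**Figure D1:**
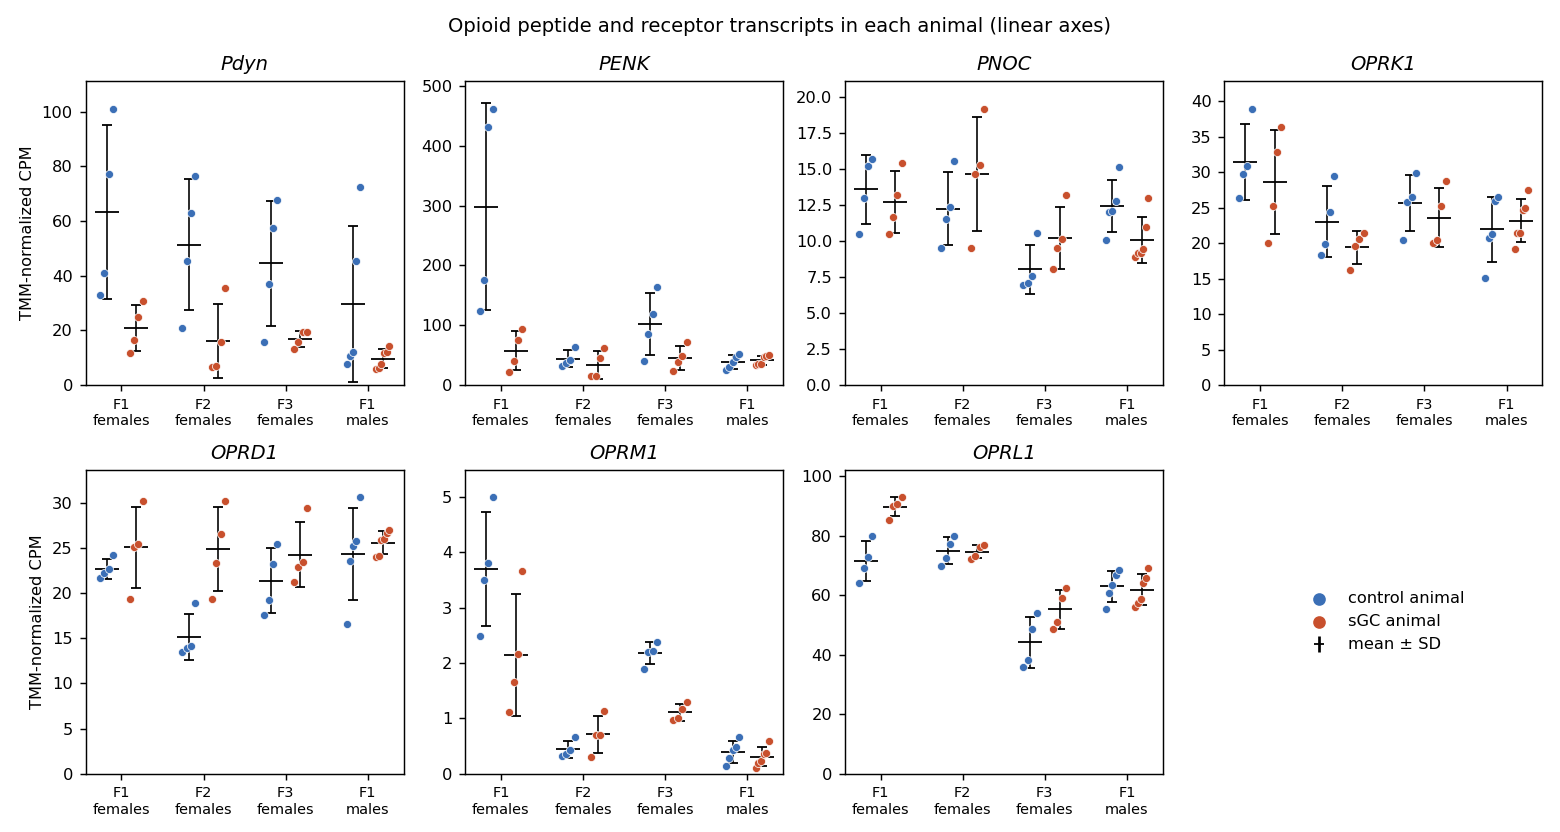
Each panel shows 1 gene on a linear axis of TMM-normalized CPM, with 1 point per animal (blue, control; red, sGC) and bars for the mean ± SD of each group in each table. Pdyn sits lower in the sGC than in the control group of every table, with means of 20.9 and 63.2 CPM in F1 females, whereas PENK is separated only among F1 females.

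Pdyn, the dynorphin precursor, had a lower mean in the sGC than in the control animals of every table. In F1 females the 4 controls had 101.1, 33.1, 41.1 and 77.4 CPM and the 4 sGC animals 16.5, 24.9, 11.6 and 30.6 CPM. The lowest control lay just above the highest sGC animal, and the controls spread 3.06-fold among themselves. The mean fell from 63.2 ± 31.8 to 20.9 ± 8.47 CPM (SD, n = 4 and 4), a log2 fold change of -1.60 (SE 0.40, FDR 0.0309). The call was lost without control 1, control 4 or sGC animals 1, 2 or 3, with log2 fold changes of -1.25, -1.48, -1.50, -1.69 and -1.40 and FDRs of 0.0516, 0.0704, 0.0874, 0.0514 and 0.0647.

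In F2 females the controls had 20.7, 45.3, 76.3 and 62.9 CPM of Pdyn and the sGC animals 15.7, 35.5, 6.60 and 7.09 CPM. One sGC animal, replicate 2, lay among the controls and the other 3 lay below all of them. The log2 fold change was -1.67 (SE 0.51) with an FDR of 0.144, and without sGC replicate 2 it was -2.36 with an FDR of 0.0117. Of the 8 fits without 1 animal only that 1 called Pdyn, and the FDR rose to 0.362 without control 3.

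In F3 females the controls had 15.9, 67.6, 57.6 and 36.9 CPM and the sGC animals 13.1, 19.4, 19.3 and 15.7 CPM. Here it was a control, replicate 1, that lay among the sGC animals, which were themselves close together. The log2 fold change was -1.40 (SE 0.37, FDR 0.0988), and without control replicate 1 it was -1.68 with an FDR of 0.00506. No other fit without 1 animal called Pdyn there, and the FDR reached 0.257 without control 2. The likelihood ratio test and DESeq2, which kept all animals, gave FDRs of 0.00618 and 0.0359.

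In F1 males the controls had 12.1, 7.52, 72.5, 45.5 and 10.6 CPM and the sGC animals 7.70, 14.2, 6.24, 5.69, 11.7 and 12.01 CPM. Controls 3 and 4 stood far above every other male, and the other 3 controls lay within the range of the sGC animals. The log2 fold change was -1.63 (SE 0.53, FDR 0.0695). Without control 3 it was -0.99 (FDR 0.220), and without control 2 or control 5, which were low, it was -1.88 and -1.85 with FDRs of 0.0342 and 0.0428.

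The size of the Pdyn difference was therefore similar in the 4 tables, from -1.67 to -1.40 on the log2 scale. By the quasi-likelihood test it passed the threshold in F1 females only. By the likelihood ratio test it also passed in F2 females (FDR 0.0348), F3 females (FDR 0.00618) and F1 males (FDR 0.0177). DESeq2 called it in F3 females (FDR 0.0359) but not in F2 females or F1 males. The calls outside F1 females thus depended on the test used. The study, which used the likelihood ratio test, reports lower Pdyn in every group of sGC animals. The difference in response between tables was -0.04 for F1 males minus F1 females (SE 0.76, FDR 0.977), -0.07 for F2 minus F1 females (SE 0.72), 0.18 for F3 minus F1 females (SE 0.59) and 0.27 for F3 minus F2 females (SE 0.69). These standard errors leave room for sizeable differences in either direction. In order of their means, the groups ran from F1 female controls at 63.2 CPM through F2 female (51.3), F3 female (44.5) and F1 male controls (29.7) to F1 (20.9), F3 (16.9) and F2 female (16.2) and F1 male sGC animals (9.60), and each group overlapped its neighbours in that order.

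PENK, the enkephalin precursor, fell in F1 females by 2.37 on the log2 scale (SE 0.55, FDR 0.0230). The controls had 462.4, 123.6, 175.4 and 431.6 CPM and the sGC animals 74.7, 21.98, 40.4 and 93.7 CPM. All 4 sGC animals lay below all controls, but controls 1 and 4 stood at more than 400 CPM, well apart from controls 2 and 3. The means were 298.2 ± 173.5 and 57.7 ± 32.4 CPM (SD, n = 4 and 4). Without control 4, sGC animal 1 or sGC animal 3 the log2 fold change was -2.14, -2.52 and -2.23 and the FDR rose to 0.0552, 0.0560 and 0.0568.

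PENK groups overlapped in the other tables. In F2 females the controls had 64.2, 41.8, 32.5 and 37.3 CPM and the sGC animals 45.5, 14.3, 62.0 and 15.5 CPM (log2 fold change -0.35, SE 0.41, FDR 0.732). In F3 females the controls had 40.7, 118.6, 164.4 and 85.9 CPM and the sGC animals 37.9, 71.8, 23.7 and 48.5 CPM (log2 fold change -1.16, SE 0.42, FDR 0.198), with control replicate 1 again among the sGC animals. Without that control the log2 fold change was -1.43 with an FDR of 0.0415. No other fit without 1 animal called PENK in F3 females, and the FDR was 0.419 without control 2. In F1 males the controls had 24.6, 52.1, 29.9, 38.2 and 47.7 CPM and the sGC animals 47.4, 36.0, 49.8, 34.5, 48.7 and 33.5 CPM (log2 fold change 0.11, SE 0.18, FDR 0.756), so that the male groups covered the same range.

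The PENK response of F1 males differed from that of F1 females, by 2.48 on the log2 scale (SE 0.54, FDR 0.00231), in a comparison in which 31.7% of all genes tested had a differing response. This interaction passed the threshold in each of the 19 fits that left out 1 animal. Sex cannot be told apart from table or depth in that contrast, since each sex had its own table and the male libraries held more reads. Between F1 and F2 females the PENK difference was 2.02 (SE 0.75, FDR 0.0817), between F1 and F3 females 1.19 (SE 0.73, FDR 0.438), and between F2 and F3 females -0.82 (SE 0.65, FDR 0.658).

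Markers of striatal spiny neurons were lower together with PENK in the sGC animals of the F1 and F3 female tables, but not of the F2 female table. Summed over the 11 markers listed in the F1 female table, they reached 2691, 706, 994 and 2474 CPM in the 4 F1 female controls and 397, 445, 453 and 746 CPM in the 4 sGC animals, so that the same controls 1 and 4 were highest for PENK and for this sum. Of these 11 genes, 6 fell in sGC F1 females, beside 7.33% of all genes. Among them were SIX3, a striatal transcription factor (log2 fold change -3.82, FDR 0.0332), PPP1R1B, which encodes DARPP-32 (-2.30, FDR 0.0339), RGS9 (-1.58, FDR 0.0218) and the substance P precursor TAC1 (-1.52, FDR 0.0142). The defining markers were not absent: in F1 female controls the mean was 94.3 CPM for DRD2 and 202.0 CPM for ADORA2A, against 7.44 and 21.7 CPM in sGC animals, and these differences did not pass the threshold (FDR 0.0566 for both).

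The striatal sum, over 11 markers in F3 females, 9 in F2 females and 10 in F1 males, was 499 to 1233 CPM in F3 female controls and 336 to 625 CPM in F3 sGC females. It was only 222 to 277 and 240 to 357 CPM in F2 female controls and sGC animals, and 224 to 287 and 239 to 268 CPM in the F1 male groups, where ADORA2A averaged 3.50 and 3.52 CPM and DRD2 0.36 and 0.36 CPM. The F1 and F3 female controls, with the higher striatal sums, were also the controls with the higher mean PENK. In F2 females, where ADORA2A and SIX3 were not listed, the striatal sum was 1.26-fold higher in sGC animals while the log2 fold change of PENK was -0.35, and 1 of the 8 markers tested rose, and none of 11 in F3 females or 10 in F1 males passed. Without F1 female controls 1 and 4, an omission chosen after the values were seen, the log2 fold change of PENK in F1 females was -1.35 (FDR 0.0960) and that of Pdyn -0.80 (FDR 0.138), and the PENK interaction with F1 males was 1.48 (FDR 0.0247). Whether the content of striatal cells in the punch had a part in the PENK and Pdyn differences of F1 females was not tested beyond these values.

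PNOC, the nociceptin precursor, passed the threshold in none of the tables. Its animals ranged from 10.4 to 15.7 CPM in F1 female controls and from 10.5 to 15.4 CPM in F1 sGC females, with a log2 fold change of -0.09 (SE 0.16, FDR 0.707). The log2 fold changes were 0.26 in F2 females (SE 0.20, FDR 0.564), 0.35 in F3 females (SE 0.18, FDR 0.374) and -0.30 in F1 males (SE 0.12, FDR 0.131). In males 5 controls had 15.1, 10.1, 12.8, 12.1 and 12.002 CPM and 6 sGC animals 8.89, 9.40, 9.16, 10.9, 9.14 and 12.96 CPM. All but sGC animals 4 and 6 lay below every male control, and without sGC animal 6 the log2 fold change was -0.38 with an FDR of 0.0282. The other fits without 1 male did not call PNOC, with an FDR of up to 0.282 without control 1. POMC, the remaining opioid precursor, which gives beta-endorphin, was taken from the list of other neuropeptides and had group means of 5.60 to 7.82 CPM with no FDR under 0.05.

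**Figure D2:**
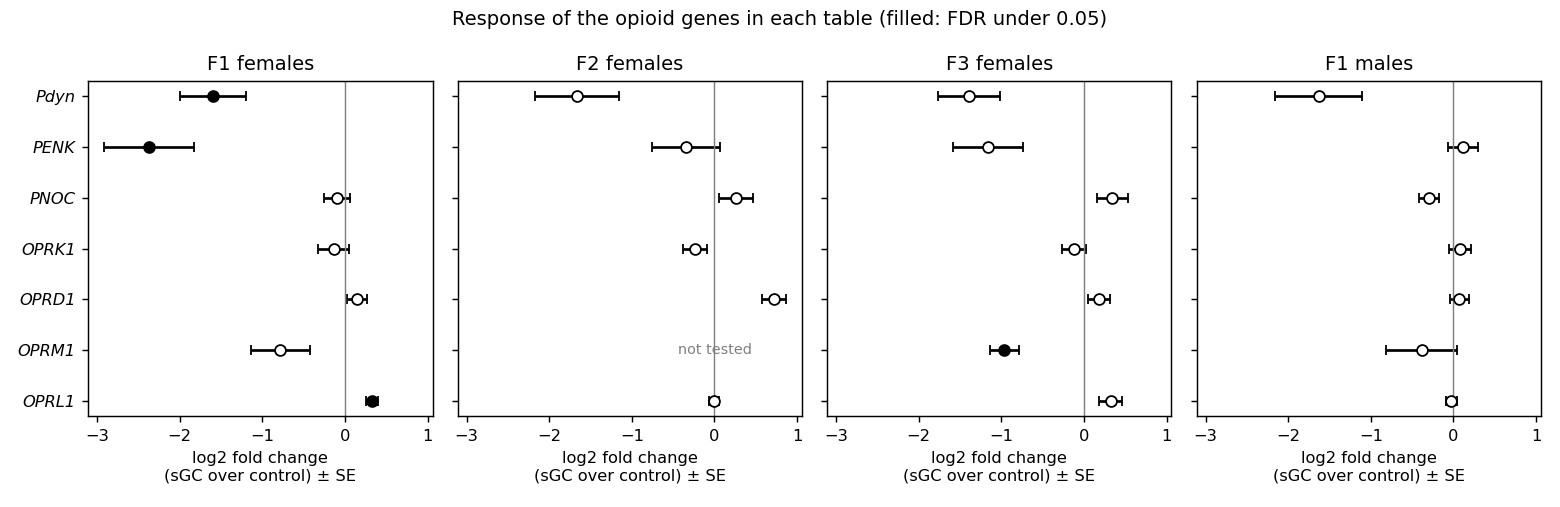
Log2 fold change of sGC over control animals for each opioid gene (rows) in each table (panels), with bars for 1 SE; filled points have an FDR under 0.05 and OPRM1 was not tested in F2 females. The Pdyn estimates lie between -1.67 and -1.40 in all 4 panels, while PENK runs from -2.37 in F1 females to 0.11 in F1 males.

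Of the receptors, OPRL1, which binds nociceptin, rose in F1 females. Controls had 69.2, 64.1, 72.8 and 80.1 CPM and sGC animals 85.3, 92.9, 90.8 and 90.1 CPM. Every sGC animal lay above every control, with little spread among the sGC animals. The mean rose from 71.6 ± 6.72 to 89.8 ± 3.21 CPM (SD, n = 4 and 4), a log2 fold change of 0.33 (SE 0.07, FDR 0.0202). The call was lost only without control 3, with an FDR of 0.0530, and held without controls 1 and 4 (log2 fold change 0.41, FDR 0.0197).

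OPRL1 in F2 females was 70.0 to 80.0 CPM in controls and 72.4 to 77.0 CPM in sGC animals (log2 fold change -0.01, SE 0.06, FDR 0.979). In F1 males it was 55.4 to 68.6 and 55.9 to 69.1 CPM (-0.03, SE 0.07, FDR 0.852). The groups therefore covered nearly the same range in both of these tables. The response in F1 males minus that in F1 females was -0.36 (SE 0.10, FDR 0.0126), a call that held in all 19 fits without 1 animal. In F2 minus F1 females it was -0.34 (SE 0.09, FDR 0.0274), where 13.8% of all genes had a differing response. That call was lost without F2 control 2, control 3 or sGC animal 4, at -0.32, -0.31 and -0.33 with FDRs of 0.0511, 0.0577 and 0.0513. In F3 females controls had 54.0, 36.0, 48.6 and 38.3 CPM and sGC animals 62.3, 59.1, 48.7 and 50.98 CPM. The log2 fold change there, 0.32 (SE 0.13), was close to that of F1 females, but 2 sGC animals lay within the range of the controls and the FDR was 0.264. The difference between F1 and F3 females was -0.02 (SE 0.16, FDR 0.960).

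OPRM1, the mu receptor, was counted in few reads. In F3 females controls had 1.90, 2.20, 2.39 and 2.22 CPM and sGC animals 1.29, 1.01, 0.970 and 1.17 CPM, from 14 to 35 reads per animal. All sGC animals lay below all controls, and the mean fell from 2.18 ± 0.20 to 1.11 ± 0.15 CPM (SD, n = 4 and 4), a log2 fold change of -0.97 (SE 0.17, FDR 0.0351). Leaving out any animal but control 1 brought the FDR above 0.05, between 0.0509 without sGC animal 1 and 0.134 without control 4, with log2 fold changes of -1.05 to -0.91.

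In F1 females OPRM1 was 3.50, 2.49, 3.81 and 4.99 CPM in controls and 1.11, 1.65, 3.67 and 2.17 CPM in sGC animals. Only sGC animal 3 overlapped the controls. The log2 fold change was -0.78 (SE 0.36, FDR 0.156), and without that animal -1.17 with an FDR of 0.0499. No other fit without 1 animal called OPRM1 there, and the FDR was 0.313 without control 4. F2 females had 4 to 15 reads per animal and were not tested, and F1 males had 3 to 17 reads, with 0.142 to 0.663 CPM in controls and 0.0966 to 0.584 CPM in sGC animals (log2 fold change -0.38, SE 0.43, FDR 0.642). The standard error in males leaves room for a difference of the size seen in F3 females. As with PENK, OPRM1 was counted at higher levels in the F1 and F3 female tables than in the F2 female and F1 male tables, a difference between tables that was not tested.

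OPRD1, the delta receptor, was higher in every sGC animal than in every control among F2 females. Controls had 18.9, 13.5, 13.9 and 14.2 CPM and sGC animals 30.3, 19.4, 26.6 and 23.4 CPM. The means were 15.1 ± 2.55 and 24.9 ± 4.64 CPM (SD, n = 4 and 4), and the log2 fold change of 0.72 (SE 0.15) just missed the threshold, with an FDR of 0.0556. The likelihood ratio test (FDR 0.000783) and DESeq2 (FDR 0.00109) called it. The quasi-likelihood test called it without control 1 (FDR 0.0281) or without sGC animal 2 (FDR 0.00854). These were the animals of each group closest to the other group, so leaving them out was bound to widen the difference. In those fits 245 and 487 of all genes were called, against 31 with all animals. Of the 8 fits without 1 animal only these 2 called OPRD1, and the FDR reached 0.170 without control 3.

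The other tables gave smaller OPRD1 differences, of 0.14 in F1 females (SE 0.12, FDR 0.435), 0.18 in F3 females (SE 0.14, FDR 0.547) and 0.07 in F1 males (SE 0.11, FDR 0.754). Group means in those tables lay between 21.4 and 25.6 CPM, so that the F2 female controls, at 15.1 CPM, had the lowest mean of the 8 groups and the F2 sGC females, at 24.9 CPM, lay within the range of the remaining group means. The response in F2 females differed from that in F1 females by 0.57 (SE 0.21) with an FDR of 0.0758, and passed without F1 sGC animal 2 (0.67, FDR 0.0414), F2 control 1 (0.68, FDR 0.0409) or F2 sGC animal 2 (0.67, FDR 0.0384). Of the 16 fits without 1 animal only these 3 called it, and the FDR reached 0.144 without F2 sGC animal 1. The sum of deep cortical layer markers was 601 to 709 CPM in F2 female controls and 662 to 981 CPM in F2 sGC females, a 1.31-fold higher mean. It was also 1.43-fold higher in F1 and 1.35-fold higher in F3 sGC females, where the OPRD1 differences were small. The oligodendrocyte sum was 2.11-fold higher in F2 sGC females, and within that table its markers went with OPRD1 over the 8 animals (r = 0.87). Over all 35 animals r was 0.57, and it was 0.29, 0.66 and 0.60 within F1 females, F3 females and F1 males. In F1 males the oligodendrocyte sum was 1.94-fold higher in sGC animals, with an OPRD1 difference of 0.07. The sGC mean was 1.27 times the control mean in F3 females and 0.61 times in F1 females. The part of either list in the OPRD1 difference was not tested.

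OPRK1, the kappa receptor on which dynorphins act, passed the threshold in none of the tables. In F1 females controls had 38.9, 30.8, 29.7 and 26.3 CPM and sGC animals 32.9, 20.1, 36.3 and 25.3 CPM. The groups covered much the same range, with a log2 fold change of -0.14 (SE 0.19, FDR 0.639). It was -0.24 in F2 females (SE 0.15, FDR 0.467), -0.12 in F3 females (SE 0.14, FDR 0.721) and 0.08 in F1 males (SE 0.13, FDR 0.765), with group means from 19.4 to 31.5 CPM. No interaction of OPRK1 passed, the lowest FDR being 0.539.

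Over the 4 pairs of tables, 2 genes had a differing response between F1 females and F1 males (PENK and OPRL1), beside 31.7% of all genes, and 1 of 7 between F1 and F2 females (OPRL1), beside 13.8%, so neither count stands far from the share over all genes. Between F1 and F3 females there was 0, also at an unadjusted p under 0.05 and with the likelihood ratio test and DESeq2, beside 0.0981% of all genes past the FDR and 15.8% past the unadjusted p. The likelihood ratio test and DESeq2 called 114 and 201 of all 11212 genes there. Between F2 and F3 females there was 0, with 3 at an unadjusted p under 0.05 (OPRM1, OPRD1 and OPRL1), beside 0.0180% and 11.5% of all genes. For that pair the likelihood ratio test called 1 (OPRM1) and DESeq2 0, beside 93 and 126 of all 11140 genes. No adjusted p was given by DESeq2 for OPRM1.

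Animals of 1 group varied together with cell type markers and with some other lists. For each animal the log2 level was taken as its deviation from the mean of its own table and treatment, and the 6 opioid genes with enough reads were set against 17 lists in 102 relations over 35 animals, with permutation within table and treatment. Since each pair of values comes from 1 library, shared tissue content and depth enter both. Pdyn went with upper cortical layer markers (r = 0.75, rho = 0.77, adjusted permutation p = 0.00357 and 0.00204), with r of 0.43, 0.87, 0.95 and 0.91 within F1, F2 and F3 females and F1 males and 0.69 without the 2 animals farthest out. It went against oligodendrocyte markers (r = -0.66, rho = -0.68, adjusted permutation p = 0.0105 and 0.00994), again with the same sign in all 4 tables.

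OPRD1 went with deep cortical layer markers (r = 0.76, rho = 0.77, adjusted permutation p = 0.00204 and 0.00102), with r from 0.70 to 0.93 within the 4 tables and 0.70 without the 2 animals farthest out. It also went with oligodendrocyte markers (r = 0.57, rho = 0.68, adjusted permutation p = 0.0118 and 0.00510). Against upper cortical layer markers OPRD1 had r = -0.60 and rho = -0.52 (adjusted permutation p = 0.0216 and 0.0386). Both relations kept their sign in all 4 tables. PENK went with striatal markers (r = 0.68, rho = 0.60, adjusted permutation p = 0.0216 and 0.0386), but with r of 0.79, 0.43 and 0.91 within F1, F2 and F3 females and -0.56 within F1 males the relation did not hold in males. For Pdyn and striatal markers r was 0.31 over all animals, with an adjusted permutation p of 0.210 for r and 0.275 for rho, and 0.90 within F1 females. In all, 10 of the 102 relations passed an adjusted p of 0.05 for Pearson's r, and not all were with cell type lists. PENK went with the peptide breakdown list (r = 0.68, adjusted permutation p = 0.0117), with r from 0.55 to 0.83 within the 4 tables. Pdyn went with the other neuropeptides (r = 0.57, adjusted permutation p = 0.0241), though with r of -0.04 within F2 females. Among the 15 pairs of opioid genes none passed (lowest adjusted permutation p = 0.239 for r and 0.186 for rho), and Pdyn and PENK were unrelated over all animals (r = 0.04), at 0.61 and 0.73 within F1 and F3 females and -0.54 and -0.38 within F2 females and F1 males.

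**Figure D3:**
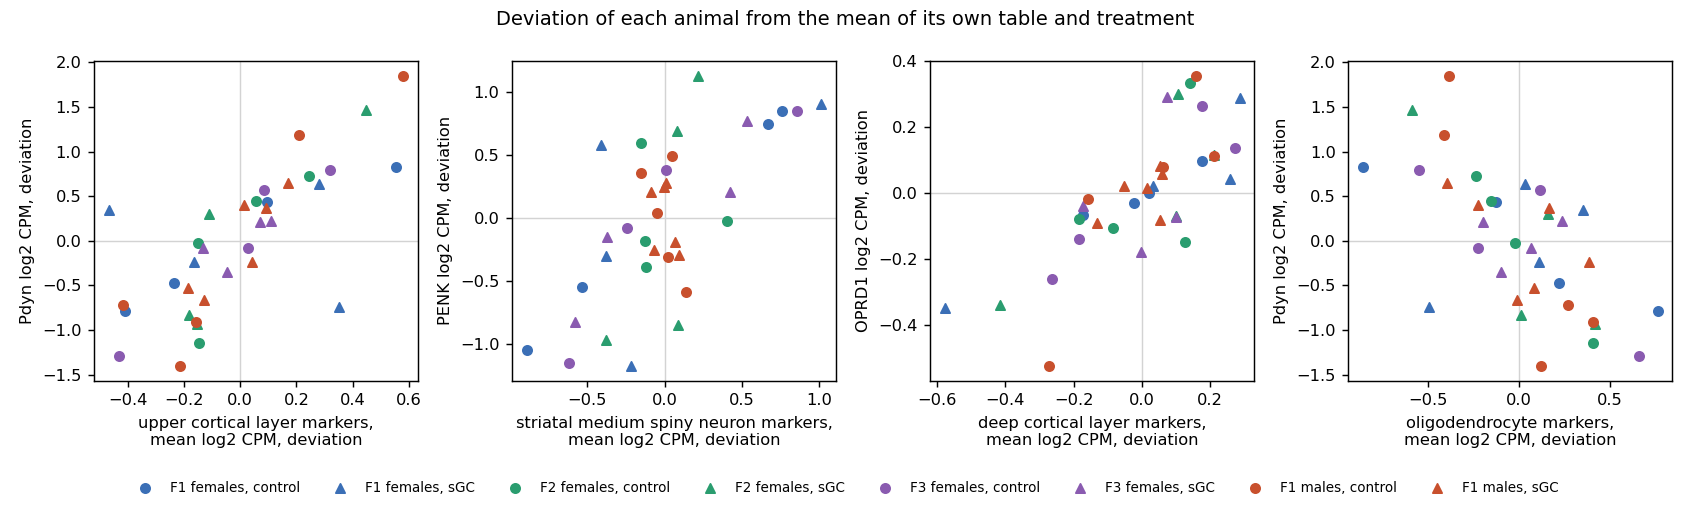
Each point is 1 of 35 animals, plotted as the deviation of an opioid gene (vertical axis, log2 CPM) from the mean of its own table and treatment against the same deviation of the mean log2 CPM of a marker list (horizontal axis); colours are tables, circles control and triangles sGC animals. Pdyn rises with upper layer markers (r = 0.75) and declines with oligodendrocyte markers (r = -0.66), OPRD1 rises with deep layer markers (r = 0.76), and PENK rises with striatal markers over all animals (r = 0.68) but not within F1 males (r = -0.56).

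The marker sums themselves also differed between some groups in which Pdyn was lower. The upper layer sum was 760 to 951 CPM in F2 female controls and 557 to 744 CPM in F2 sGC females, and in F1 males it was 999 and 802 CPM in controls 3 and 4, the animals with the highest Pdyn, against 605 to 686 CPM in all males but those and control 5, at 735 CPM. It was 502 to 937 and 523 to 923 CPM in F1 females and 375 to 622 and 453 to 493 CPM in F3 females, where the groups covered one another. The oligodendrocyte sum was 3200 to 6070 CPM in F1 male controls and 6813 to 11572 CPM in F1 sGC males. All 6 listed oligodendrocyte markers rose in sGC males, beside 5.74% of all genes. In F1 females, the table in which the quasi-likelihood test called Pdyn, the sum went the other way. It was 4155 to 14101 CPM in controls and 3298 to 6651 CPM in sGC animals. It was 2920 to 4512 and 4340 to 10124 CPM in F2 females and 2036 to 5296 and 3530 to 5125 CPM in F3 females, and none of the markers passed in the female tables by edgeR's quasi-likelihood test, with 3, 5 and 1 at an unadjusted p under 0.05 in F1, F2 and F3 females. The part of layer or white matter content in the Pdyn differences was not tested.

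Among the 10725 genes tested in all tables, the genes whose deviations were most like those of Pdyn over the 35 animals were RFX3 (r = 0.91), KL (0.87), CALB1 (0.86) and TIAM1 (0.86). CALB1, which encodes the calcium-binding protein calbindin and is 1 of the 8 upper layer markers, had log2 fold changes of -1.59 (FDR 0.0246), -1.05 (FDR 0.0556), -1.67 (FDR 0.0642) and -0.98 (FDR 0.0690) in F1, F2 and F3 females and F1 males. Those most like PENK were SV2C (r = 0.78), VAV3 (0.78), NRGN (0.77) and Lpl (0.77). BCL11B (0.85), SLC35F3 (0.84), FOXP2 (0.83) and GAREM1 (0.83) were most like OPRD1, and BCL11B and FOXP2 are transcription factors of deep layer neurons. FXYD6 (0.80), Ramp3 (0.77), GPR45 (0.77) and MAP1LC3A (0.76) were most like PNOC, DGKH (0.69), SLC9A5 (0.69), MAPK4 (0.68) and ADORA2B (0.65) most like OPRK1, and BCL11A (0.71), KARS (0.70) and PCYOX1L (0.68) were among the 4 most like OPRL1. With 10725 genes searched, high values arise by selection, and they are given as a description.

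Genes that process, degrade and transduce opioid peptides were examined as lists. In F1 females 9.21% of all genes rose and 7.33% fell, and in F1 males 5.74% and 3.48%. The shares were 0.153% and 0.126% in F2 females and 1.07% and 0.271% in F3 females. The counts of each list below stand beside these shares, and no list was tested as a set. Of 10 convertases, carboxypeptidases and granule proteins that mature the precursors, 1 rose in F1 females, PCSK1, the convertase that makes the first cuts (100.04 ± 34.3 to 167.4 ± 28.9 CPM, n = 4 and 4, log2 fold change 0.74, FDR 0.0482). In F3 females PCSK1 had a log2 fold change of 0.91 with groups that did not overlap, but an FDR of 0.0823. SCG2, a granule protein, fell in F2 females by 0.40 on the log2 scale (FDR 0.0334), and CPD, a carboxypeptidase, rose in F1 males (0.19, FDR 0.0474). None of the 9 listed in F3 females passed.

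Of 11 peptidases that cut opioid peptides, 1 rose and 2 fell in F1 females, beside 9.21% and 7.33% of all genes. LNPEP, an aminopeptidase, rose (66.6 ± 3.25 to 94.5 ± 2.26 CPM, n = 4 and 4, log2 fold change 0.51, FDR 0.00356). ECE2 (log2 fold change -0.47, FDR 0.0376) and MME, which encodes the enkephalin-degrading neprilysin (-0.41, FDR 0.0484), fell. NLN, neurolysin, rose in F1 males (0.18, FDR 0.0456), and none passed in F2 or F3 females.

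Of 12 kinases, RGS proteins and partners that regulate opioid receptors, 3 rose and 3 fell in F1 females and 4 fell in F1 males, with 0 in F2 and F3 females. OPCML, an opioid-binding cell adhesion protein, and RGS7, which speeds the end of inhibitory G protein signals, went opposite ways in the F1 sexes. OPCML had log2 fold changes of 0.69 in F1 females (FDR 0.00418) and -0.28 in F1 males (FDR 0.0143), and RGS7 of 0.40 (FDR 0.0162) and -0.23 (FDR 0.00318). GRK2, a kinase that desensitizes the receptors, rose in F1 females (0.37, FDR 0.00432), and RGS20 fell (-0.56, FDR 0.0177). RGS9 was also among the 3 that fell, and it belongs to the striatal list as well.

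Of 13 effectors, 6 rose and 1 fell in F1 females, 2 fell in F1 males and 0 passed in F2 or F3 females. The potassium channel subunit KCNJ3 rose (48.5 ± 7.27 to 102.0 ± 15.8 CPM, n = 4 and 4, log2 fold change 1.07, FDR 0.00390), as did the inhibitory G protein subunits GNAI1 (0.44, FDR 0.00564) and GNAZ (0.26, FDR 0.00738). ADCY5, the main adenylyl cyclase of striatal neurons, fell (-1.10, FDR 0.0150). The median log2 fold change of the 13 effectors in F1 females was 0.22, beside -0.03 over all genes. Excitatory cortical neuron markers were higher in those sGC animals as well, at 3072 to 6429 CPM against 1743 to 3079 CPM in controls, although 0 of the 6 listed passed the FDR (6 at an unadjusted p under 0.05), and their part in the effector differences was not tested.

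Of 11 transcription factors that act on Pdyn or PENK, KCNIP3 was the only one called in more than 1 table. It encodes DREAM, a calcium-regulated repressor of prodynorphin transcription. It rose in F1 females from 92.3 ± 7.03 to 130.9 ± 11.8 CPM (n = 4 and 4, log2 fold change 0.50, SE 0.08, FDR 0.00688) and in F3 females from 129.4 ± 5.42 to 162.9 ± 12.5 CPM (n = 4 and 4, 0.33, SE 0.06, FDR 0.0410). In F2 females the groups did not overlap either, with 120.5 ± 6.82 and 140.6 ± 3.85 CPM (n = 4 and 4, 0.22, SE 0.06, FDR 0.0968). In F1 males, where the log2 fold change of Pdyn was -1.63 (FDR 0.0695), KCNIP3 was 123.1 ± 12.5 and 124.2 ± 12.004 CPM (n = 5 and 6, 0.01, FDR 0.944). The part of KCNIP3 in the Pdyn differences was not tested. ATF2 fell in F1 males (-0.25, FDR 0.00445), and NR3C1, the glucocorticoid receptor, was among the 10 factors of the list with no call in F1 females.

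**Figure D4:**
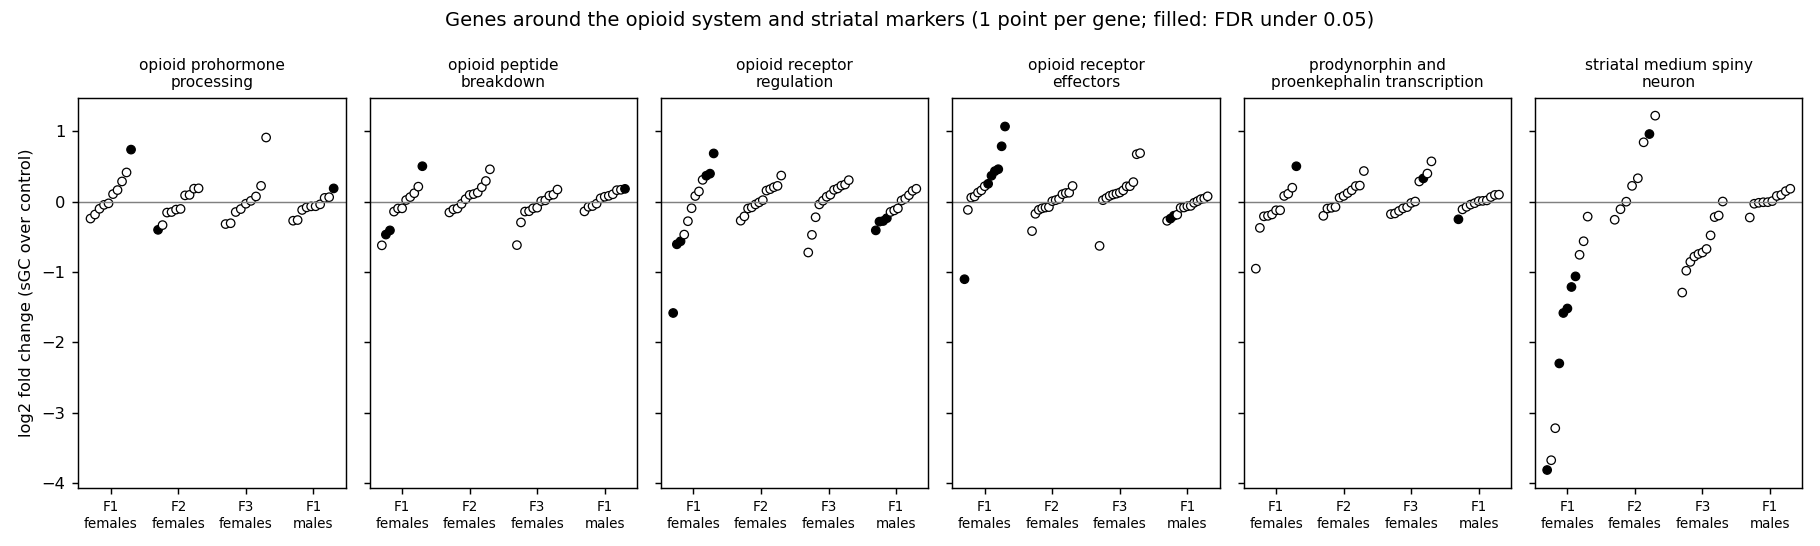
Log2 fold change of sGC over control animals (vertical axis) for each gene of 6 lists (panels) in each table, ordered by size within a table; 1 point is 1 gene and filled points have an FDR under 0.05. Among the receptor effectors 6 genes lie filled above 0 in F1 females, and among the striatal markers 6 lie filled below 0 in F1 females and 1 above 0 in F2 females. Of all genes, 9.21% rose and 7.33% fell in F1 females and 0.153% rose in F2 females.

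In a list of 13 neuropeptides tested in F1 females, which holds Pdyn, PENK, PNOC and POMC, 5 fell: Pdyn, PENK, TAC1, NPY and NTS. Summed without Pdyn, PENK and PNOC, the list was not lower, with a median of 743 CPM in sGC animals and 590 CPM in controls. NPY, a peptide of cortical interneurons, fell from 70.2 ± 3.01 to 54.2 ± 3.44 CPM (n = 4 and 4, log2 fold change -0.37, FDR 0.00770), and NTS, the neurotensin precursor, by 3.24 on the log2 scale (FDR 0.00721). In F2 females 1 of 13 fell, in F3 females 0 of 12 passed, and in F1 males 2 of 13 fell, 1 of them ADCYAP1, the PACAP precursor (-0.68, FDR 0.0199). The median log2 fold changes of the list were -0.32, -0.12, -0.18 and -0.22 in F1, F2 and F3 females and F1 males, beside -0.03, 0.01, -0.01 and 0.00 over all genes.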

How the data were processed

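The authors sequenced guinea pig mPFC mRNA, 1 library per animal, and deposited raw read counts, as whole numbers for each symbol, in 4 tables. TopHat2 and edgeR are named in the submitters' processing notes, but the read counter, genome build and gene filter are not given in the sources used here. The deposited tables also hold the authors' own comparison (log2 fold changes and mean log2 CPM, p-values and FDR, and likelihood ratio and dispersion scores), which was not used.

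The software was edgeR 4.0.16 under R 4.3.3, with limma 3.58.1 as a dependency and DESeq2 1.42.0 as a second tool. Low counts were removed by filterByExpr at a minimum count of 10 and a minimum total of 15, and library sizes were scaled by TMM. Groups were compared within each table by the quasi-likelihood test, with the study's likelihood ratio test as an alternative. Differences in response between tables were tested as interactions. The p-values were adjusted over all genes tested (11268, 11132, 11420 and 11524 in F1, F2 and F3 females and F1 males), and calls have an FDR under 0.05. Per the study's methods, females of a table came from separate litters, with 1 animal of each sex per litter. For males no such statement was found, and litter mates would make their p-values too small. Whether F1 females and F1 males shared litters, or F2 and F3 females shared sires, was not found either. All tests, including the interactions of F1 females and F1 males, treated animals as independent. Relations between animals used log2 CPM with a prior count of 2 and 100000 permutations. The methods were tested on data simulated with the same dispersion for every gene, which does not cover genes as variable as Pdyn and PENK. No libraries of the same group were duplicates, and libraries of different groups were not compared for this. Library totals did not differ detectably between groups (exact two-sided permutation test, p from 0.359 to 0.943).

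The opioid genes, the 17 other gene lists and the tests were chosen with earlier results of these data known. All opioid genes were named, from each other list at most 4 genes of smallest FDR among those called, and for each opioid gene with a mean of at least 5 CPM the 4 genes most like it. PPP1R1B, DRD2, ADORA2A, POMC, NR3C1, AVP and OXT fall outside that rule and were named after their values were seen. As alternatives, each comparison was repeated with DESeq2, with scaling by RLE or by the upper quartile, without a filter, with a filter of CPM above 1 in at least 4 libraries and with a replicate block. Each animal was also left out in turn, and the 8 conditions were fitted together. One gene that the rule names is not reported here. Sequences of the opioid genes were not used here.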

Additional observations from a re-analysis of the deposited data

Results flagged for a closer look

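OPRD1 in F2 female control replicate 1 was 18.9 CPM, far from the other 3 controls at 13.5 to 14.2 CPM relative to the spread of the group. It was the only animal flagged among 56 groups of 4 to 6 animals looked at, and chance alone flags about 5 percent of groups. The rule compared the gap beyond the highest or lowest animal with the range of its group. Animals that stand apart together are not flagged by it, such as F1 male controls 3 and 4 for Pdyn and F1 female controls 1 and 4 for PENK.

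The response of PENK differed between F1 females and F1 males by 2.48 on the log2 scale (male minus female, FDR 0.00231). That of OPRL1 differed by -0.36 between the same tables (FDR 0.0126). The OPRL1 response also differed between F1 and F2 females, by -0.34 (F2 minus F1, FDR 0.0274).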

How the results depend on the processing

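Under the likelihood ratio test and DESeq2, the opioid genes called numbered 2 and 1 in F2 females and 2 and 2 in F3 females, and the likelihood ratio test called 1 in F1 males. Over all genes the 2 tools called 534 and 473 of 11132 in F2 females and 616 and 632 of 11420 in F3 females. The likelihood ratio test called 1410 of 11524 in F1 males. A single fit of all 8 conditions called 0 in F3 females and 1 in F1 males, beside 396 and 766 of all 10948 genes. For interactions the likelihood ratio test called 2 genes between F1 and F2 females and 1 between F2 and F3 females. Over all genes it called 1723 of 11166 and 93 of 11140. Without controls 1 and 4, an omission chosen after seeing the data, 1 gene (OPRL1) was called in F1 females, beside 1707 of all 11338 genes. Leaving out each animal in turn gave 1 to 3 genes in F1 females, 0 to 2 in F2 females, 0 to 3 in F3 females, 0 to 1 in F1 males and 0 to 2 interactions between F1 and F2 females. Over all genes the same fits called 613 to 2115 in F1, 0 to 487 in F2 and 20 to 598 in F3 females. They called 667 to 1613 in F1 males and 808 to 1906 interactions between F1 and F2 females. The cause of these shifts was not tested.

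With the replicate number as a block, 1 gene was called in F2 females (OPRD1, 0.71, FDR 0.0461), 0 in F3 females and 2 interactions between F1 and F2 females (PENK and OPRD1). Over all genes these were 53 of 11132, 67 of 11420 and 1067 of 11166, and 1080 of 11268 in F1 females. In F1 females the block fit called Pdyn (FDR 0.0417), PENK (FDR 0.00251) and OPRL1 (FDR 0.0467). The SE of PENK there was 0.10, against 0.55 without the block. Over all genes, animals that shared a number did not deviate together in a steady way (r from -0.33 to 0.34). That check cannot show whether the numbers pair animals. Male sGC animal 6 was dropped from that fit. The block turned OPRL1 in F1 males to 0.0017, the Pdyn interaction of F1 males and F1 females to 0.31 and the OPRK1 interaction of F1 and F3 females to 0.014, which was 0.010 with DESeq2, 0.011 with RLE and 0.027 with upper-quartile scaling, where that of OPRL1 was 0.0098.

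Small values changed sign when 1 animal was left out, none with an FDR under 0.05. OPRK1 ranged from -0.27 to 0.0061 in F1 females and from -0.028 to 0.16 in F1 males, OPRL1 from -0.040 to 0.025 in F2 females and from -0.068 to 0.0054 in F1 males, PENK in F1 males from -0.0074 to 0.25 and OPRD1 there from -0.038 to 0.17. The interactions of F1 males and F1 females ranged from -0.37 to 0.61 (Pdyn) and from -0.19 to 0.027 (OPRD1). Those of F1 and F2 females ranged from -0.78 to 0.18 (Pdyn) and from -0.24 to 0.027 (OPRK1). Those of F1 and F3 females ranged from -0.14 to 0.46 (Pdyn), -0.082 to 0.13 (OPRD1), -0.14 to 0.16 (OPRK1), -0.11 to 0.091 (OPRL1) and -0.40 to 0.22 (OPRM1), and those of F2 and F3 females from -0.073 to 0.27 (PNOC) and -0.024 to 0.21 (OPRK1).

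Over the whole tables, genes called numbered 1864, 31, 153 and 1062 in F1, F2 and F3 females and F1 males, against 2100, 534, 616 and 1410 with the likelihood ratio test, 2423, 473, 632 and 1590 with DESeq2, 1080, 53, 67 and 999 with the block and 3327, 10, 396 and 766 in the single fit. F2 females had 76 without a filter and 70 with upper-quartile scaling. That scaling turned the split in F1 females from 826 lower and 1038 higher to 1088 lower and 803 higher. OPRM1 rested on 3 to 76 reads per animal, with 4 to 15 in F2 females and 3 to 17 in F1 males, whose libraries were the deepest.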

Other observations

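Other cell type markers of the punch also differed between the F1 female groups. The counts in this section stand beside 7.33% of all genes lower and 9.21% higher in F1 females and 3.48% and 5.74% in F1 males. In F2 and F3 females 0.153% and 1.07% of all genes were higher. All 4 sGC females had lower summed microglia markers than all controls, at 188 to 210 against 255 to 304 CPM, and 5 of 6 microglia markers fell, among them TYROBP (log2 fold change -0.54, FDR 0.00612) and CX3CR1 (-0.49, FDR 0.00774), whereas none passed in the other tables. Of 7 astrocyte markers 3 fell in F1 females, among them GJA1, a gap junction protein (-0.53, FDR 0.0204), and 1 rose in F1 males. Of 9 cortical interneuron markers 3 fell in F1 females, GAD2 (-0.62, FDR 0.00721), the GABA transporter gene SLC32A1 (-0.89, FDR 0.0254) and NPY, and 1 rose. In F1 males 2 of the 9 fell (GAD1 and SST, named after their values were seen), with a median log2 fold change of -0.22 over the list, and in F3 females PVALB, parvalbumin, rose (0.92, FDR 0.00918).

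Among the markers of cortical layers, CUX1 (-0.47, FDR 0.00688), MDGA1 (-0.60, FDR 0.0182) and CALB1 of the upper layers fell in F1 females. The deep layer markers CRYM rose in F1 females (0.99, FDR 0.0357) and CTGF in F2 females (1.06, FDR 0.0443). Of 7 claustrum markers 1 rose in F1 females, GNG2 (0.39, FDR 0.0218), and of 6 endothelial markers 1 fell, CDH5 (-0.34, FDR 0.0345). The endothelial sum was 251 to 348 CPM in the F1 and F3 female tables and 1130 to 1588 CPM in the F2 female and F1 male tables. None of the 4 or 5 paraventricular nucleus markers listed passed in any table by edgeR's quasi-likelihood test, with 2 at an unadjusted p under 0.05, both in F2 females.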
